A study of Mus musculus with 7 samples.

Results

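The serpins are a superfamily of protease inhibitors, and they were read here as every gene of the footprint table whose symbol begins with Serpin. Where a symbol had more than 1 row, the row with the most coding footprints was to be kept; all 39 Serpin rows had symbols of their own. Of these, 38 are described here, of the 13047 distinct symbols in the table. By symbol they comprised 12 Serpina genes, 22 Serpinb genes and 4 genes of other clades (Serpine2, Serpinf1, Serping1 and Serpinh1).

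The libraries were made by ribosome profiling, which sequences the mRNA piece that a ribosome covers, so a count over a coding region measures ribosomes on it. The tested libraries were 2 from primary epidermis of mice with a transgenic knockout of Pelota (KO), set against 2 from wild-type (WT) epidermis. Pelota, encoded by Pelo, is known to help release stalled ribosomes from mRNA. All 4 libraries were depleted of ribosomal RNA with RiboZero-Gold. The sources used here give no age, sex, treatment or number of animals per library, nor the driver of the knockout or the deleted part of the gene. The labels list 2 KO and 1 WT RNA-seq libraries too, which were not analysed here. More mRNA and more ribosomes per mRNA therefore cannot be told apart in any value below, nor, in bulk tissue, can fewer cells of a type and less RNA per cell. Nothing says that replicates came from separate animals, so p-values cover only how far these samples spread.

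A serpin presents an exposed reactive loop as bait. The protease that cuts it is trapped in a covalent complex and both are consumed. Clade A serpins are mostly secreted, and clade B serpins mostly lack a classical signal peptide and act inside cells. Several are known in skin, where they meet the kallikreins and cathepsins that take part in shedding and barrier formation. Some members inhibit no protease: Serpinh1 (Hsp47) is a collagen chaperone, Serpinf1 (PEDF) is an anti-angiogenic factor, and Serpinb5 (maspin) does not act as a classical inhibitor.

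The libraries yielded 4925876 and 4521561 coding footprints from KO and 5282276 and 4221675 from WT. The serpins took 22983 and 20016 of these in KO and 30877 and 27168 in WT. Pelo itself carried 24 and 21 footprints in KO libraries against 101 and 61 in WT (log2 change −1.65 with an SE of 0.245, adjusted p = 0.000807, edgeR quasi-likelihood test). A count is listed in the table only above 0.01 footprints per nt of coding sequence, so an unlisted value is low but need not be 0. Of the 38 serpins, 36 and 36 were listed in the KO libraries and 36 and 34 in the WT libraries. The labelled epidermis also held other tissue: dermal fibroblast genes took 4.70% and 5.32% of the coding total in KO and 9.49% and 13.9% in WT. All 9 basal keratinocyte markers looked for had a row and were tested, and together they took 2.47% and 2.26% in KO and 1.64% and 1.75% in WT. Gene by gene they were mixed: 2 were higher in KO, 3 lower and 4 neither at an adjusted p under 0.05 (edgeR quasi-likelihood test). Their median log2 change was 0.10, with a range of −1.72 to 1.84.

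Many serpins lie in clusters of related copies, some of them very alike, and reads shared between copies can be divided among them in ways not described in the sources used here. Promoter sequences, taken from the RefSeq tables for GRCm38.p6 (250 bases before to 50 after the gene start), show how close the copies are that behaved differently or alike below. They matched 31 of the 38 serpins. The sequences are for reference only, since footprints say nothing of promoters. The Serpinb3 genes all had more footprints in KO. The promoters of Serpinb3a, Serpinb3b and Serpinb3c were 93.1% to 96.2% identical, while that of Serpinb3d was 58.1% to 66.8% identical to them. The first 3 sequences below run over the stretch that holds the TATA motif (TATAAA, in capitals), and the Serpinb3d sequence covers the last 65 bases before its start, where the motif was not found on the gene's strand.
Serpinb3a, minus strand, chr1:107052339-107052403: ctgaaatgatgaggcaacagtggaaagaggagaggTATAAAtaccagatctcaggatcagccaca
Serpinb3b, minus strand, chr1:107161126-107161190: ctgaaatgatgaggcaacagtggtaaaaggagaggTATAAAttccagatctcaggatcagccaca
Serpinb3c, minus strand, chr1:107278373-107278437: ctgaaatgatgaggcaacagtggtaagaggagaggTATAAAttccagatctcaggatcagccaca
Serpinb3d, minus strand, chr1:107083481-107083545: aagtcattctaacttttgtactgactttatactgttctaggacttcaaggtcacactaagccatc

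A second pair of copies is shown because the genes parted. The promoters of Serpina3c and Serpina3n were 93.5% identical, yet Serpina3c had fewer footprints in KO and Serpina3n did not pass the test. Capitals mark the bases that differ between these sequences or face a gap, over the last 100 bases before each start.
Serpina3c, minus strand, chr12:104153873-104153972: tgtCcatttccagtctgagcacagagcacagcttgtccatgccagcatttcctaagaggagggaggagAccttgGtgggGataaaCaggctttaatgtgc
Serpina3n, plus strand, chr12:104406608-104406707: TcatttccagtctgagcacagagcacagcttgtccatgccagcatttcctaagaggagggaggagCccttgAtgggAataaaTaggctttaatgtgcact

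The last pair holds Serpinb6e, with the largest fall of the family, and Serpinb6d, which did not pass the test. Their promoters were 78.0% identical, and capitals again mark the bases that differ or face a gap.
Serpinb6e, minus strand, chr13:33843409-33843508: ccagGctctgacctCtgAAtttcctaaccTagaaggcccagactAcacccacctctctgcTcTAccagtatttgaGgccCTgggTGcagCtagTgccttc
Serpinb6d, plus strand, chr13:33661305-33661404: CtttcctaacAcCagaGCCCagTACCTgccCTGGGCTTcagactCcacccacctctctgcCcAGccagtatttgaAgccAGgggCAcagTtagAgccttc

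In KO, Serpina genes past the test were all lower and Serpinb genes past it were, but for Serpinb6e, all higher. Of the 34 serpins listed in all 4 libraries and tested, 10 were higher and 10 lower at an adjusted p under 0.05 (edgeR quasi-likelihood test, adjusted over all 10953 transcripts tested), and 14 did not pass. Over all transcripts tested, 39.0% passed in either direction, 19.9% as higher and 19.1% as lower. Serpina gave 0 higher and 6 lower of 10 tested, Serpinb 10 higher and 1 lower of 20, and the other clades 0 higher and 3 lower of 4. The median log2 change was −0.67 for Serpina, 0.56 for Serpinb and −0.69 for the other clades, beside −0.02 over all transcripts tested. The genotypes did not overlap for 26 of the 34 serpins, 13 with both KO libraries above both WT libraries and 13 below. The same held for 71.9% of all transcripts tested, 35.4% above and 36.5% below. With 2 libraries per genotype, non-overlap alone is therefore common in this comparison. None of the tests above compared the clades with each other.

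**Figure D1:**
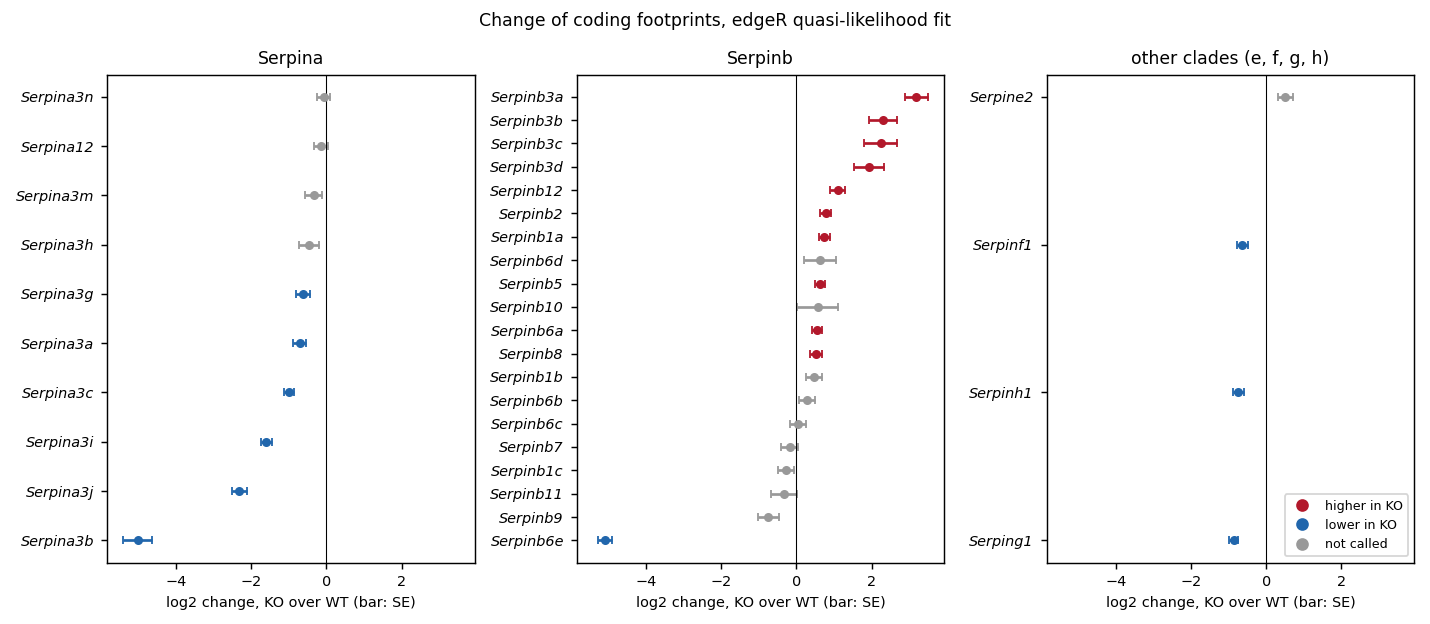
Log2 change (KO over WT) of the 34 serpins tested, in a panel per clade, with bars of 1 SE; red marks genes higher in KO and blue genes lower at an adjusted p under 0.05, and grey the rest. The 6 Serpina genes that passed lie below 0, while Serpinb holds 10 higher genes and, at −5.11, Serpinb6e.

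As a share of all coding footprints, the family held 0.467% and 0.443% in KO and 0.585% and 0.644% in WT. That is 0.455% ± 0.0169 in KO against 0.614% ± 0.0417 in WT (SD, n = 2 each). Serpina held 0.0825% ± 0.0130 in KO against 0.171% ± 0.0152 in WT, and the other clades 0.133% ± 0.00685 in KO against 0.252% ± 0.0219 in WT. Serpinb went the other way, with 0.239% ± 0.0108 in KO against 0.191% ± 0.00465 in WT. The KO libraries lay below both WT libraries for the family, Serpina and the other clades, and above both for Serpinb. The two-sided exact permutation p was 0.333 for each share, the smallest that 2 against 2 libraries allow. The Serpinb share leaned on Serpinb5, without which the difference between KO and WT was 0.0222 percentage points against 0.0483 with it.

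**Figure D2:**
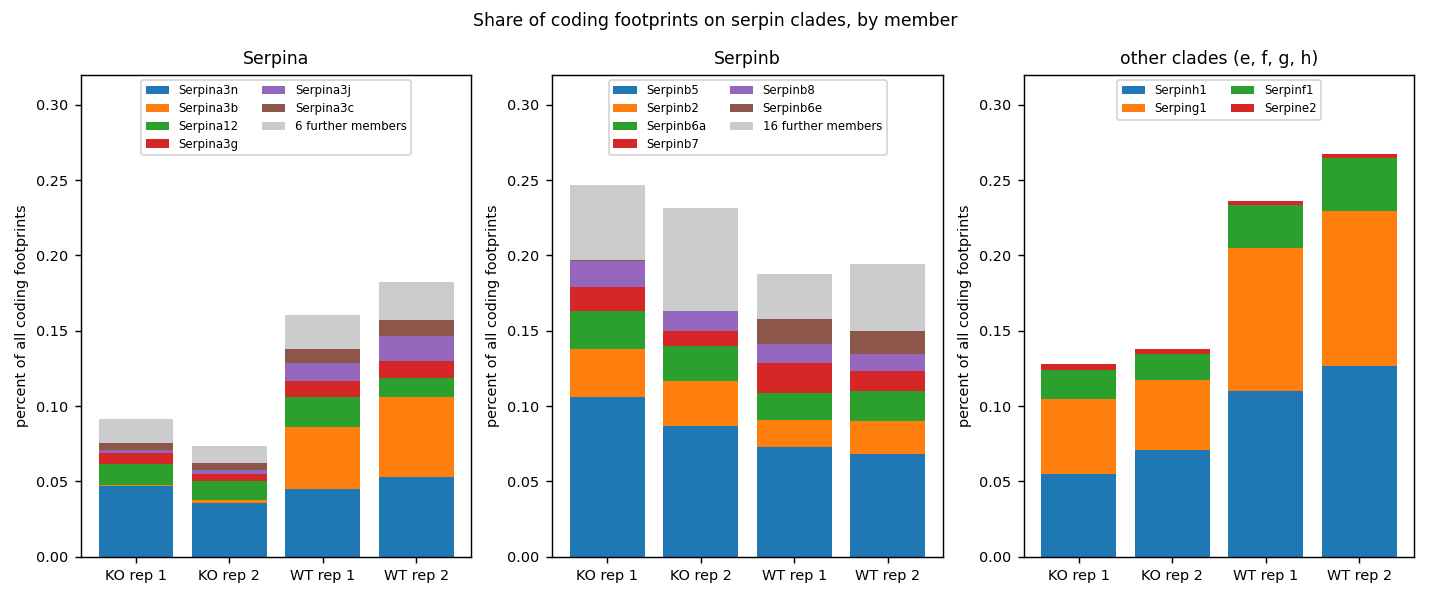
Share of all coding footprints (percent, y axis) held by each serpin clade in each library, as stacked bars by gene with KO left of WT. Serpinb was higher in both KO libraries, at 0.247% and 0.232% against 0.188% and 0.194% in WT, and the other clades were lower.

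Levels can be compared between genes only per coding length, given here as CPM (counts scaled to library size) divided by the coding length in kb. In KO the highest were Serpinb5 at 966 ± 157 CPM per kb and Serpinh1 at 564 ± 87.6 (SD, n = 2). In WT the order of these was reversed, with Serpinh1 at 945 ± 123 and Serpinb5 at 626 ± 8.12. Serpina3n at 371, Serping1 at 353 and Serpinb2 at 278 followed in KO; the KO values of Serpina3n and Serping1 overlapped. In WT, Serping1 at 647 overlapped with Serpinb5, followed by Serpina3n at 391 and Serpina3b at 374, with overlapping values for these last genes. The lowest of the tested genes in KO were Serpinb6e at 3.61 and Serpinb9 at 6.79 CPM per kb. Serpina3b, at 11.5 in KO, thus moved between the upper and the lower end of the family.

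**Figure D3:**
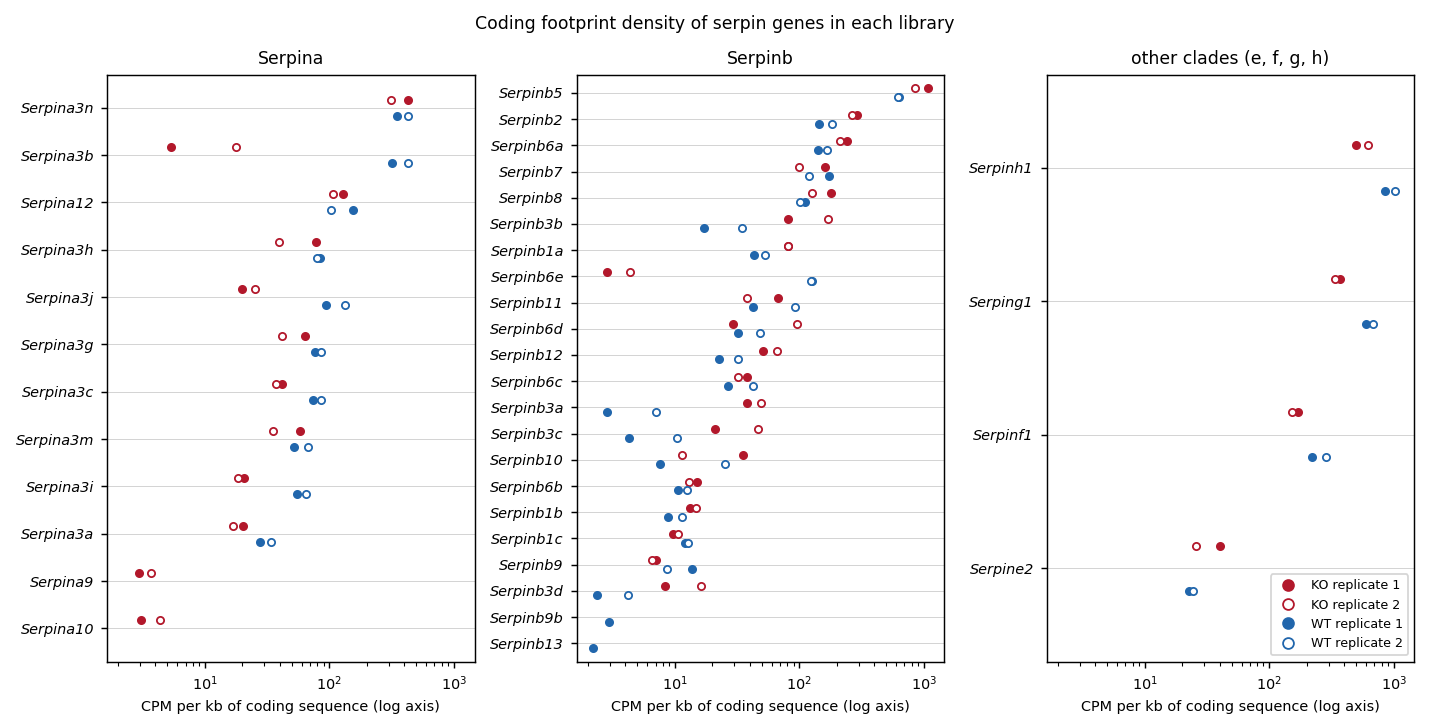
CPM per kb of coding sequence (log axis) of each serpin in each library that lists it, KO in red above WT in blue, with replicate 1 filled and replicate 2 open. Serpina3b and Serpinb6e show the widest gaps between genotypes, and Serpinb5 and Serpinh1 the highest levels.

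Among the clade A serpins, the losses lay in Serpina3, the mouse counterpart of human alpha-1-antichymotrypsin that is expanded into many copies in rodents. Of its 9 listed genes, 6 fell, 3 did not pass and none rose, beside 19.1% lower and 19.9% higher over all transcripts tested. Serpina3b (transcript uc007owu.1, coding length 1203 nt) had 29 and 92 footprints in KO libraries against 2168 and 2243 in WT. Both KO libraries were far below both WT libraries, but they also differed from each other. In CPM this was 13.9 ± 10.6 in KO against 449 ± 96.4 in WT (SD, n = 2 each), 32.5-fold lower in the knockout (log2 change −5.02, SE 0.382, adjusted p = 1.82e-05). The size depended on the KO libraries: the log2 change was −4.38 without KO replicate 1 and −6.12 without KO replicate 2. Serpina3b made up 0.642% and 2.77% of all Serpina footprints in KO libraries against 25.6% and 29.2% in WT.

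Next in size was Serpina3j, with 109 and 132 footprints in KO libraries against 644 and 693 in WT (log2 change −2.32, SE 0.196, adjusted p = 3.05e-05). Serpina3i had 109 and 93 in KO against 363 and 326 in WT (−1.60, SE 0.148, adjusted p = 4.8e-05). For Serpina3c the counts were 227 and 193 in KO against 500 and 446 in WT (2.01-fold lower in KO, adjusted p = 0.0005). In each of these genes both KO libraries lay well below both WT libraries. A smaller fall was called for Serpina3a, with 112 and 88 in KO against 190 and 179 in WT (−0.72, SE 0.171, adjusted p = 0.00954). Serpina3g had 365 and 226 in KO against 556 and 470 in WT (−0.63, SE 0.185, adjusted p = 0.0242). Serpina3g is an intracellular inhibitor of lysosomal cathepsins in mouse leukocytes. The calls of both genes hung on single libraries. Serpina3a had an adjusted p of 0.0516 without WT replicate 2, and Serpina3g did not pass without KO replicate 2 (log2 change −0.35) or without WT replicate 2 (−0.56).

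Serpina3n, a secreted inhibitor of granzyme B and leukocyte elastase in mice, was the most abundant gene of the clade in KO. It had 2315 and 1623 footprints in KO libraries against 2381 and 2243 in WT, and these ranges overlapped after scaling (444 ± 94.3 CPM in KO, 468 ± 69.9 CPM in WT; log2 change −0.08, SE 0.164, adjusted p = 0.749). Serpina3n held 51.3% and 48.9% of Serpina footprints in KO libraries against 28.1% and 29.2% in WT. The other Serpina3 genes that did not pass were Serpina3h at −0.47 (adjusted p = 0.177) and Serpina3m at −0.34 (adjusted p = 0.251). Both passed as lower without KO replicate 1, at −1.04 and −0.74. The Serpina3h transcript is annotated with a coding region of only 591 nt, and its 5′ UTR held 64 and 56 footprints in KO libraries against 246 and 215 in WT. The coding count alone thus leaves out many of the footprints on this transcript, and the 5′ UTR counts were not tested.

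Outside Serpina3, Serpina12 (vaspin), an inhibitor of kallikrein 7, had 688 and 544 footprints in KO libraries against 1039 and 533 in WT and did not pass (log2 change −0.14, adjusted p = 0.58). Serpina10 and Serpina9 were listed only in KO. Serpina10, the Z-dependent protease inhibitor of coagulation, had 18 and 24 footprints in KO and at most 12 in either WT library, so its mean scaled level was at least 1.96-fold higher in KO. Serpina9 had 16 and 19 in KO and at most 11 in either WT library, a bound of 1.78-fold. Neither was tested, and both bounds stand on few counts. They rest on the limit of 0.01 footprints per nt, and with that limit doubled they no longer exceed 1.

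The mouse Serpinb genes lie in a cluster on chromosome 1 and another on chromosome 13. On chromosome 1, 8 of 11 tested genes rose and none fell, with a median log2 change of 0.77. These risers include the 4 Serpinb3 genes, copies among which reads may be shared, so they may not be separate readings. On chromosome 13, 2 of 9 rose and 1 fell, with a median of 0.29. The background is 19.9% higher and 19.1% lower over all transcripts tested, and the difference between the clusters was not tested.

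**Figure D4:**
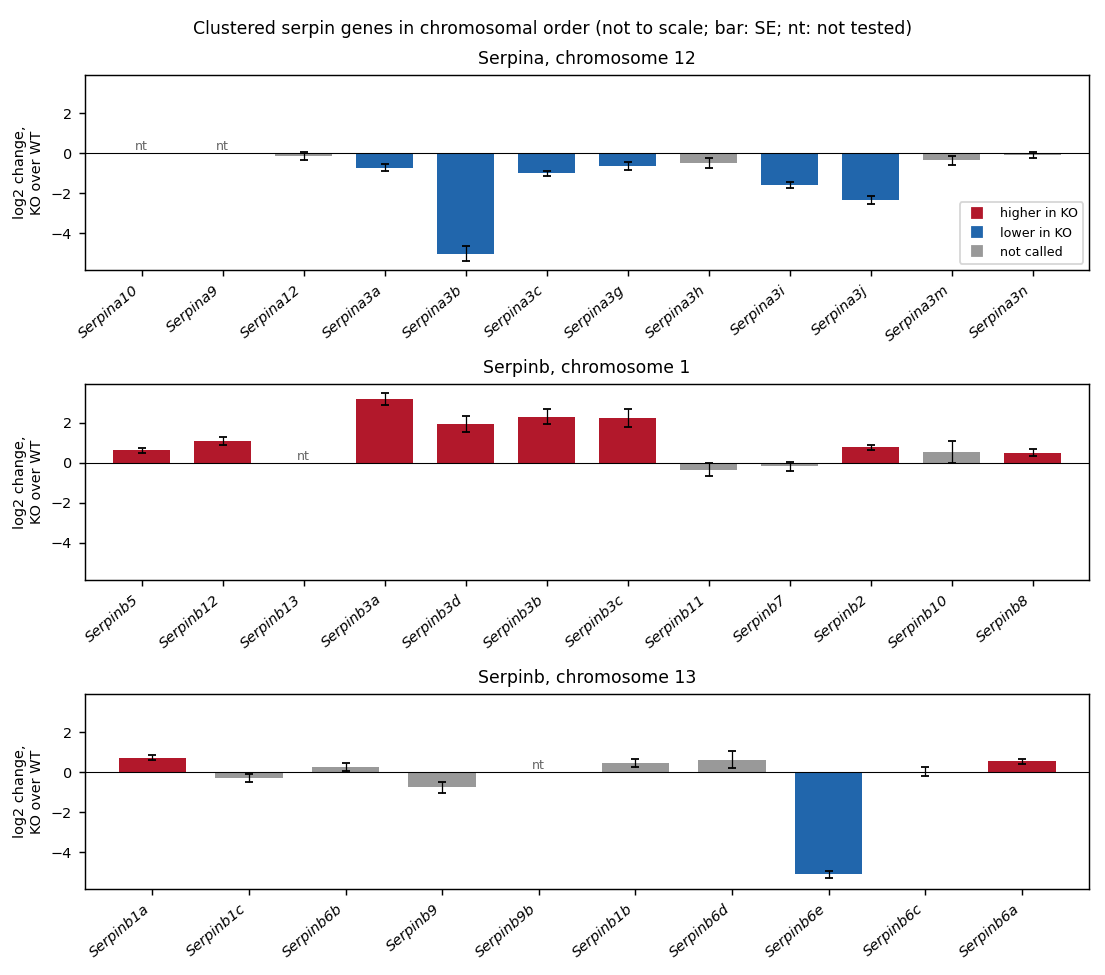
Log2 change (KO over WT, y axis) of the Serpina genes of chromosome 12 and the Serpinb genes of chromosomes 1 and 13, in the order of their start sites (x axis, not to scale). Columns give the change, with error bars of 1 SE, and nt marks genes not tested. The Serpinb3 genes stand together above 1.9 on chromosome 1, and Serpinb6e stands alone at −5.11 on chromosome 13.

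The largest rises of the family were in the Serpinb3 genes of chromosome 1, whose promoters are printed above. They are the mouse relatives of the human squamous cell carcinoma antigens SERPINB3 and SERPINB4, inhibitors of papain-like cysteine proteases and of some serine proteases. Serpinb3a had 192 and 234 footprints in KO libraries against 18 and 34 in WT, 9.15-fold higher in KO (log2 change 3.19, SE 0.303, adjusted p = 5.49e-05). Serpinb3b had 405 and 810 in KO against 107 and 165 in WT (2.31, SE 0.373, adjusted p = 0.00129). Serpinb3c had 105 and 221 in KO against 27 and 50 in WT (2.24, SE 0.432, adjusted p = 0.00326). All KO values lay above all WT values in each of these genes. Serpinb3d, whose promoter was the least similar, had 42 and 77 in KO against 15 and 20 in WT (1.93, SE 0.392, adjusted p = 0.00428). Coding sequences of the copies were not compared. Each gene passed whichever library was left out. The sizes moved by over 1.5 times in 3 of them. Without WT replicate 2 the log2 change was 3.92 for Serpinb3a, 2.88 for Serpinb3b and 2.96 for Serpinb3c. Without KO replicate 2 it was 1.69 for Serpinb3b and 1.57 for Serpinb3c, and without WT replicate 1 it was 2.61 for Serpinb3a. Summed over the copies, the Serpinb3 genes held 0.0151% and 0.0297% of the coding total in KO against 0.00316% and 0.00637% in WT.

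The other risers of the chromosome 1 cluster changed less. Serpinb12, an inhibitor of trypsin-like proteases, had 280 and 343 footprints in KO libraries against 156 and 170 in WT (log2 change 1.10, SE 0.191, adjusted p = 0.00195). Serpinb2, plasminogen activator inhibitor type 2, which also acts inside keratinocytes, had 1570 and 1350 in KO against 969 and 936 in WT (0.77, SE 0.138, adjusted p = 0.00219). Serpinb5, the most abundant serpin of KO, had 5217 and 3928 in KO against 3838 and 2872 in WT (0.63, SE 0.136, adjusted p = 0.00617). Scaled, it stood at 1032 ± 168 CPM in KO against 669 ± 8.68 CPM in WT (SD, n = 2 each). Serpinb8, which in humans is linked to a peeling skin disorder, was called at 0.52 (SE 0.163, adjusted p = 0.0319). That call was lost without KO replicate 1 (0.26), without WT replicate 1 (0.58) and without WT replicate 2 (0.45), and DESeq2 gave an adjusted p of 0.0508.

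Serpinb7, Serpinb10 and Serpinb11 of the same cluster did not pass. Serpinb7, linked in humans to a palmoplantar keratosis, had 786 and 465 footprints in KO libraries against 1061 and 566 in WT (log2 change −0.17). Serpinb10 had 163 and 50 in KO against 44 and 112 in WT, and Serpinb11 had 338 and 182 in KO against 269 and 442 in WT. In the last 2 genes replicates differed as much as genotypes, and leaving out single libraries gave changes of either sign. Serpinb10 passed as higher without KO replicate 2 (1.17) and without WT replicate 2 (1.62). Serpinb11 passed as lower without KO replicate 1 (−0.79) and without WT replicate 1 (−0.81). Serpinb13 was listed only in WT replicate 1, with 14 footprints, and was not tested.

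On chromosome 13 a single gene carried the only fall of the clade. Serpinb6e (transcript uc007qal.1, coding length 1230 nt) had 16 and 23 footprints in KO libraries against 878 and 657 in WT. Both KO libraries held little and both WT libraries agreed after scaling, at 4.44 ± 1.28 CPM in KO against 153 ± 1.99 CPM in WT (SD, n = 2 each). It was 34.4-fold lower in the knockout (log2 change −5.11, SE 0.187, adjusted p = 3e-06), with changes of −5.42 to −4.82 when single libraries were left out. Serpinb6e held 0.132% and 0.220% of Serpinb footprints in KO libraries against 8.85% and 8.01% in WT. Its copies did not share this fall. Serpinb6a, an intracellular inhibitor of cathepsin G, rose, with 1245 and 1038 in KO against 922 and 828 in WT (0.55, SE 0.129, adjusted p = 0.00883), though without WT replicate 1 it did not pass (0.42, adjusted p = 0.0556). Serpinb6b at 0.29 and Serpinb6c at 0.04 did not pass. Serpinb6d had 141 and 441 in KO against 196 and 225 in WT, and only 1 KO library lay above WT (0.64, adjusted p = 0.273). Without KO replicate 1 the change was 1.27 and passed; without KO replicate 2 it was −0.45.

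Serpinb1a, an inhibitor of neutrophil elastase and cathepsin G, was the other riser of chromosome 13, with 397 and 374 footprints in KO libraries against 267 and 249 in WT (log2 change 0.75, SE 0.137, adjusted p = 0.00258). Its copies Serpinb1b (0.48) and Serpinb1c (−0.28) did not pass. Serpinb9, the granzyme B inhibitor that shields cytotoxic cells from their own protease, had 34 and 30 in KO against 84 and 40 in WT. It stood just outside the threshold (−0.75, adjusted p = 0.0585) and passed without WT replicate 2 (−1.03). Serpinb9b was listed only in WT replicate 1, with 18 footprints, and was not tested.

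Of the clades beyond A and B, the extracellular matrix and plasma serpins fell. Serping1, the C1 inhibitor that controls the classical complement pathway and the contact system, had 2449 and 2096 footprints in KO libraries against 5006 and 4342 in WT (log2 change −0.87, SE 0.124, adjusted p = 0.000632). Serpinh1, the collagen chaperone, had 2719 and 3217 in KO against 5826 and 5343 in WT (−0.74, SE 0.148, adjusted p = 0.00391). Serpinf1 had 927 and 784 in KO against 1503 and 1476 in WT (−0.64, SE 0.143, adjusted p = 0.00677). Every WT library exceeded both KO libraries in these genes. Fibroblast markers moved with them: 7 of 15 were lower in KO and 0 higher, beside 19.1% lower and 19.9% higher over all transcripts tested. Their summed share was 4.70% to 5.32% in KO against 9.49% to 13.9% in WT. The fibroblast list shares Col1a1, Col1a2, Col3a1 and Col5a1 with the collagen list below, so these lists are not separate readings. The part of fibroblasts in the result was not tested.

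Serpine2 (protease nexin 1), which inhibits thrombin and urokinase, had 207 and 126 in KO against 145 and 119 in WT and did not pass (0.51, adjusted p = 0.0796), except without KO replicate 2 (0.80).

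Markers of several skin compartments moved beside the serpin groups as well. Their counts stand against 19.9% higher and 19.1% lower over all transcripts tested. Of 11 sebaceous gland markers tested, 9 were lower and 0 higher, alongside the falls among serpins. The list held 0.190% and 0.255% of the coding total in KO against 0.669% and 0.627% in WT. Markers of stressed or wounded keratinocytes, 10 of 10 higher, held 2.81% and 3.07% in KO against 0.603% and 0.710% in WT, alongside the Serpinb rises. Suprabasal keratinocyte markers, 8 of 11 higher and 1 lower, held 8.08% and 7.23% in KO against 4.73% and 3.76% in WT. Hair follicle and shaft markers, 8 of 9 higher and 1 lower, held 0.608% and 0.291% in KO against 0.0678% and 0.0559% in WT. Melanocyte markers, 4 of 6 higher and 2 lower, held 0.0342% and 0.0183% in KO against 0.00625% and 0.00779% in WT. These lists thus moved up beside the Serpinb rises too. Adipocyte markers, 8 of 9 lower and 0 higher, held 0.0826% and 0.0579% in KO against 0.228% and 0.159% in WT, alongside the falls. Some muscle markers (2 of 4), macrophage and dendritic cell markers (4 of 11) and T cell markers (2 of 6) were lower, with 0 higher. Such short lists with few calls do not show that a compartment fell. Of 6 endothelium markers tested, 0 passed. Hair follicle stem cell markers were mixed, with 2 higher and 4 lower of 8. Their summed share was nonetheless 0.681% and 0.803% in KO against 0.226% and 0.260% in WT. Of 10 liver or plasma protein markers only transferrin had a row, and it took 0.0102% and 0.00635% in KO against 0.0141% and 0.0128% in WT. The stressed keratinocyte list shares Stfa1 and Stfa3 with the list of other inhibitors below. The suprabasal list shares Casp14 with the list of cathepsins and caspases. Lists with shared genes are not separate readings. The part of these markers in the serpin changes was not tested.

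The proteases that serpins meet were read from lists drawn up by function. Secreted and membrane serine proteases of epithelium, which include the kallikreins of cornified skin, had 16 of 19 tested genes higher, 0 lower and a median log2 change of 1.82. The whole table had 19.9% higher, 19.1% lower and a median of −0.02. Klk6 had 7924 and 7771 footprints in KO libraries against 268 and 338 in WT (log2 change 4.84, SE 0.226, adjusted p = 3.92e-06). Klk14, which activates other kallikreins, had 109 and 75 in KO against 7 and 10 in WT (3.59). Klk9 was at 797 and 691 in KO against 93 and 89 in WT (3.20), and the epithelial protease Prss27 at 183 and 168 in KO against 33 and 22 in WT (2.85). In each of these genes both KO libraries lay far above both WT libraries. Klk7, the target of vaspin, was higher too, with 10225 and 9186 in KO against 2192 and 1413 in WT (2.62, adjusted p = 5.53e-06), while vaspin (Serpina12) did not pass; Klk7 was picked for that link after its values were seen.

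Proteases and receptors of plasminogen activation, coagulation and complement, among them partners of Serpine2 and Serping1, had 6 higher, 2 lower and 12 not passing of 20, so that the part called was close to the 39.0% of all transcripts. Masp1 of the lectin pathway, an enzyme the C1 inhibitor blocks, had 217 and 195 in KO against 45 and 46 in WT (log2 change 2.35), and the protein C receptor gene Procr 60 and 37 in KO against 19 and 19 in WT (1.52). F2r, the thrombin receptor gene, was called at 0.70, and F13a1, of the fibrin cross-linking factor, at −0.60. The F13a1 call was lost without KO replicate 2 (−0.33) and without WT replicate 2 (−0.45). Of the plasminogen activator genes, Plat had 432 and 350 in KO against 388 and 256 in WT (0.47, adjusted p = 0.024), and Plau, with 341 and 211 in KO against 258 and 212 in WT, did not pass (0.40, adjusted p = 0.122). Plasminogen itself had no row.

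Granule proteases of leukocytes and mast cells had 5 of 7 tested genes higher and 0 lower, with a median log2 change of 1.07. Of all transcripts tested, 19.9% were higher and 19.1% lower. The chymase gene Cma1 had 433 and 387 in KO against 166 and 188 in WT (1.37), and Mcpt4 1042 and 1004 in KO against 449 and 621 in WT (1.07). Cpa3 was at 1.34 and Tpsb2 at 1.25. These called genes are mast cell products; neutrophil elastase (Elane) and several granzymes had no row. Mast cell markers moved with them, 6 of 6 higher, with a share of 0.0622% and 0.0583% in KO against 0.0215% and 0.0351% in WT; that list shares Cma1, Mcpt4, Cpa3, Tpsb2 and Tpsab1 with the proteases. Neutrophil markers had 3 of 3 tested genes higher and a share of 0.00818% and 0.00489% in KO against 0.00159% and 0.00280% in WT, while Ly6g, Ngp, Camp, Ltf and Elane of that list had no row. The neutrophil list shares S100a8 and S100a9 with the markers of stressed or wounded keratinocytes, so these 2 lists are not separate readings. The part of mast cells or neutrophils in the result was not tested.

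Cysteine cathepsins and caspases, which clade B serpins can inhibit, had 6 higher, 2 lower and 11 not passing of 19, with a median log2 change of 0.11. Here too the part called was close to the 39.0% of all transcripts. Casp14, the caspase of cornification, had 1096 and 843 in KO against 161 and 96 in WT (3.11). Ctsl had 3948 and 3343 in KO against 2336 and 1872 in WT (0.97), Ctsc was at 1.22 and Ctsw, of cytotoxic lymphocytes, at −0.91. Protease inhibitors outside the serpins had 12 higher, 4 lower and 4 not passing of 20, with a median of 1.44. The stefin genes led them: Stfa1 had 5931 and 4921 in KO against 68 and 138 in WT (log2 change 5.84), with BC100530 at 5.72, BC117090 at 5.62 and Stfa3 at 5.49. These too are near-identical copies, so their separate values are uncertain, and their size moved with the WT libraries, Stfa1 being at 5.26 without WT replicate 1 and 6.68 without WT replicate 2.

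Fibrillar collagens, the clients of Serpinh1, and factors of collagen folding, modification and transport had 1 higher, 11 lower and 11 not passing of 23. The median log2 change was −0.40. Of all transcripts tested, 19.9% were higher and 19.1% lower. Col1a1 had 68499 and 75428 footprints in KO libraries against 185880 and 233336 in WT (−1.41), and Col1a2 was at −1.47. P4ha2, a collagen prolyl hydroxylase subunit, was at −0.95 and Col5a3 at −0.91. DESeq2 called 7 of the 23 lower rather than 11, as did the test without KO replicate 2 and the test without WT replicate 2.

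**Figure D5:**
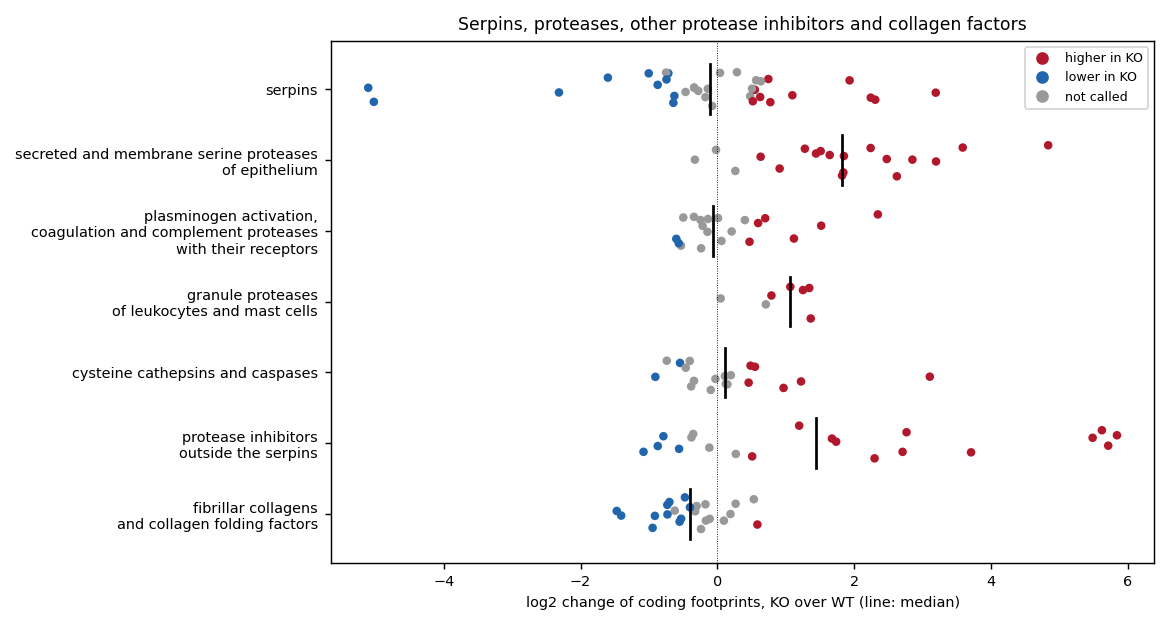
Log2 change (KO over WT) of the serpins and of the genes in each list of proteases, other inhibitors and collagen factors, 1 point per gene tested, with the median as a line. Red is higher in KO, blue lower and grey not past the threshold. The epithelial serine proteases have a median of 1.82 and the inhibitors outside the serpins one of 1.44, while the collagen list has one of −0.40.

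Footprints in the 3′ UTR, where ribosomes can be found when they are not recycled after a stop codon, were few on serpin transcripts. The family held 17 and 19 in KO against 24 and 14 in WT, or 0.0740 and 0.0949 per 100 coding footprints in KO libraries against 0.0777 and 0.0515 in WT. KO and WT overlapped (two-sided exact permutation p = 0.667, n = 2 each, where 0.33 is the smallest possible). The same ratio over all transcripts was 0.570 and 0.611 in KO against 0.702 and 0.669 in WT. None of the 38 serpins had at least 10 counts in both regions in enough libraries, so no serpin was tested, and a difference was not detectable at this depth. In the 5′ UTR the family held 254 and 237 in KO against 456 and 355 in WT, or 1.11 and 1.18 per 100 coding footprints in KO libraries against 1.48 and 1.31 in WT. The same ratio over all transcripts ran the other way, at 1.45 and 1.69 in KO libraries against 1.09 and 0.996 in WT. With 2 libraries each, neither direction could pass an exact permutation test (two-sided p = 0.333 for both). Serpina3h held 64 and 56 of the family's 5′ UTR footprints in KO and 246 and 215 in WT, more than any other serpin. The lower family ratio in KO rested on this gene. Without Serpina3h the family's 5′ UTR footprints per coding footprint were higher in both KO libraries, the direction of all transcripts. Serpinb8 had 51 and 40 in its 5′ UTR in KO against 42 and 42 in WT.

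Promoter motifs were counted on both strands of the same promoter windows, over 27025 promoters in all. The TATA motif TATAAA was found in 35.5% of the 31 serpin promoters and in 14.2% of all promoters. The AP-1 motif TGANTCA was found in 7 serpin promoters, 22.6% of them, and in 7.93% of all promoters. All 7 belong to the chromosome 1 Serpinb cluster (Serpinb2, Serpinb5, Serpinb7, Serpinb8, Serpinb10, Serpinb11 and Serpinb12), which has 11 promoters here, and 4 of them were among the genes that rose. Serpinb7, Serpinb10 and Serpinb11 held the motif and did not pass the test. The Serpinb3 promoters, the only ones of the cluster without it, belong to genes that all rose. The motif thus did not mark the genes that rose within the cluster. None of the 9 Serpinb promoters of chromosome 13 and none of the 8 Serpina promoters held it. The STAT-type motif TTCNNNGAA was found in 12.9% of serpin promoters and 8.47% of all promoters, and CCAAT in 29.0% of serpin promoters and 37.9% of all. These matches describe letters in a window and do not show a bound site.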

How the data were processed

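Footprints were counted in 4 ribosome profiling libraries of mouse epidermis (2 KO, 2 WT). The deposited values are raw counts per transcript region (5′ UTR, coding, 3′ UTR) on mm9 transcripts, per the file headers and the deposited read-me, which describes 1 table of 28 to 34 nt reads and 1 of 20 to 22 nt. The 2 tables are byte-identical, so the length class is unknown. Per the submitters' processing notes, the tools included TopHat2 2.0.10, Bowtie2 2.2.6 and CASAVA 1.8, and the builds mm9 and hg19, with no roles given. The sources used here do not say how multiply matching reads were placed, which bears on serpin copies.

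From these counts, transcripts listed in all 4 libraries (11019 of 13167) that reached 10 counts in 2 or more libraries were tested (10953) with the quasi-likelihood test of edgeR 4.0.16 in R 4.3.3, with TMM factors of 0.926 and 0.957 in KO and 1.09 and 1.04 in WT, Benjamini-Hochberg adjustment and a threshold of 0.05. The biological coefficient of variation was 11.1%. Depth was a median of 98 and 94 coding footprints per listed transcript in KO and 112 and 90 in WT. Log2 CPM correlated across transcripts at r = 0.984 between KO and at 0.984 between WT replicates; genes are not independent replicates. An unlisted count was bounded by 0.01 footprints per nt. The bounds set the mean scaled count against this limit and include neither counting error nor spread between libraries. Reads are not independent molecules. All tests were fitted on the whole table. The planned model also covered RNA-seq libraries, which were not used here.

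The family, lists and tests were chosen with earlier results of these data known. Full values were given per clade for the 10 largest changes past the threshold without overlap and with a mean of at least 20 counts and for the 3 highest densities, and per list for up to 4 of the largest changes. Other serpins are accounted for by count and call; 1 serpin is not reported here and is in none of the family's counts or shares. Klk7, Plat and Plau were added after their values were seen. Alternatives were RLE factors, DESeq2 1.42.0, no filter, unlisted counts at 0, library totals, a replicate block and leaving out each library. All 38 symbols matched RefSeq gene tables (GRCm38.p6), used for chromosomes and neighbour order, with mm9 differing from that build.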

Additional observations from a re-analysis of the deposited data

How the results depend on the processing

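Of the 20 serpin calls, 20 were kept with RLE factors, with no filter and with summed rows, 19 with DESeq2 and with library totals, 18 with unlisted counts at 0 and 17 to 19 without single libraries. No filter and summed rows left the serpin counts themselves unchanged, since dropping the filter added no serpin and no serpin symbol was repeated. Serpinb8 was lost with DESeq2, library totals (log2 change 0.34) and unlisted counts at 0, which also lost Serpina3g (adjusted p = 0.0794, edgeR). With unlisted counts at 0, Serpina9 and Serpina10 gave 2 higher Serpina calls, and the lists changed to 1 lower for plasminogen and coagulation, 1 for granule proteases and 1 for cathepsins. DESeq2 gave 1 lower cathepsin or caspase and 7 lower collagen genes. Over all genes, DESeq2 called 1492 higher and 1177 lower, against 2184 and 2093 with edgeR. Library totals shifted the median of all genes by −0.18 and the split to 1501 higher and 3023 lower. They gave 2 lower Serpinb genes, 1 lower epithelial protease, 6 lower plasminogen and coagulation genes, and Serpinb6c at −0.13.

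Same-numbered replicates did not deviate together from their genotype means across transcripts (correlation −0.00574, KO replicate 1 with WT replicate 1). This value cannot tell whether they shared a batch or preparation, and the labels give only the number. With the replicate block all 20 calls were kept and Serpinb9 made 2 lower Serpinb genes (log2 change −0.73). No serpin could be tested for its 3′ UTR ratio with the block (0 genes) or without it; at a minimum of 5 counts 1 could, Serpinb5.

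Without single libraries, lower Serpinb genes numbered 1 to 3 (chromosome 1: 0 to 2), higher genes of other clades 0 to 1, lower plasminogen and coagulation genes 1 to 3, lower cathepsins or caspases 1 to 4, and collagen genes 7 to 13 lower and 1 to 2 higher. Log2 changes ran from −0.46 to 1.62 for Serpinb10, −0.28 to 0.39 for Serpinb6c, −0.30 to 0.14 for Serpina3n, −0.81 to 0.30 for Serpinb11, −0.45 to 1.27 for Serpinb6d, −0.55 to 0.14 for Serpinb7 and −0.39 to 0.17 for Serpina12. Without the most abundant member of each clade, the KO minus WT shares were −0.123 (family), 0.0222 (Serpinb) and −0.0637 (others) percentage points. With the listing limit halved the bounds were 3.91-fold for Serpina10 and 3.91-fold for Serpina9; doubled, 0.939 and 0.850. The causes were not tested.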
